A study of Sus scrofa with 2 samples.

Results

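The genes described here encode the constitutive proteasome, the protease complex that degrades ubiquitin-tagged proteins, in PSI, a smooth muscle cell clone from pig (Sus scrofa) ileum. Members were taken by symbol: every gene named PSMA, PSMB, PSMC, PSMD, PSME, PSMF or PSMG with a number, leaving out PSMB8, PSMB9 and PSMB10 of the immunoproteasome. Of the 45 such genes known in mammals and listed for this purpose, 38 were found among the 25880 gene identifiers of the table, of which 14857 were paired with a symbol. PSMA6, PSMD2 and PSMG1 have an identifier in the name table that the table of values does not list, and PSMB5, PSMB6, PSMG2 and PSMG4 had no identifier under that symbol. These 7 genes were not analysed here.

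The study sequenced RNA of the clone in duplicate, giving 1 group of 2 libraries with no control, treatment or other cell type. The cells were grown in DMEM with 10% FBS and 1% antibiotics and, being 1 clone, stand for 1 isolate of ileal smooth muscle. Nothing in the labels says that the duplicates came from separate cultures, so any SD or p-value covers no more than the scatter of this pair of libraries, part or all of it possibly technical. Levels are FPKM, fragments scaled by gene length and by library total, so that genes of different length can be set side by side. A mean ± SD is over the 2 libraries, and detection means a level of at least 1 FPKM in each of them.

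The proteasome consists of a barrel-shaped core that cuts proteins and a regulatory cap that feeds it. The core is a stack of alpha rings, which form the gate, and beta rings, of which PSMB5, PSMB6 and PSMB7 carry the catalytic sites. The cap has a base, whose PSMC ATPases unfold the substrate, and a lid, which removes the ubiquitin chain. Within the core, and within each cap, every subunit is built in at the same number of copies. Other members encode alternative caps, an inhibitor and the chaperones that assemble the particle and then leave it.

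The check of the cell label gave a mixed picture. Of 6 smooth muscle markers, ACTA2 (693 ± 11.8 FPKM, SD, n = 2), ACTG2 (479 ± 15.0) and CNN1 (254 ± 1.02) were abundant, and TAGLN (5.46 ± 0.175), DES (2.90 ± 0.231) and MYH11 (0.491 ± 0.0433) were low. The value of MYH11 is uncertain. RefSeq places MYH11 on chromosome 3, but the genes taken here with the nearest identifier numbers, CCT2 and COPS7A, lie on chromosome 5. Marker identifiers were not checked against positions. Of 14 markers of leukocytes, epithelium, endothelium and enteric neurons or glia, 7 were listed at 0 in both libraries, among them PTPRC, CDH1 and CDH5. Values of 0 were common, since 16327 of the 25880 identifiers were above 0 in a library. ADRM1 and RPS27A, described below, were also listed at 0, so these zeros are weak evidence of absent cell types. The 2 that were detected were CD14 (2.29 ± 0.0775) and PECAM1 (1.76 ± 0.231). The totals behind the values, worked out from the smallest steps between FPKM values, were 35176565 reads or read pairs in replicate 1 and 32217729 in replicate 2.

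All 27 measured subunits of the core, base and lid were detected, and 34 of the 38 members were. For comparison, 61.5% of the identifiers with a symbol and 40.9% of all identifiers reached the same level. Of the 27, 19 lay between 20 and 60 FPKM in both libraries, 6 lay above (PSMB7, PSMB1, PSMD3, PSMD11, PSMA1 and PSMB2) and 2 lay below (PSMB3 and PSMC1). Each rested on 1093 to 7858 recovered reads per library. The RefSeq models of 7 of them (PSMA3, PSMA7, PSMC1, PSMC5, PSMD1, PSMD6 and PSMD14) overlap another gene, so their values are uncertain where reads could be assigned to either. Ranked among all identifiers by mean FPKM, the 27 genes ran from percentile 86.7 to percentile 98.5, with a median at percentile 94.2. Together they held 0.375% of the summed FPKM of each library. The median identifier called detected had 10.9 FPKM, against 42.7 ± 0.0873 for the median of the 27.

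**Figure D1:**
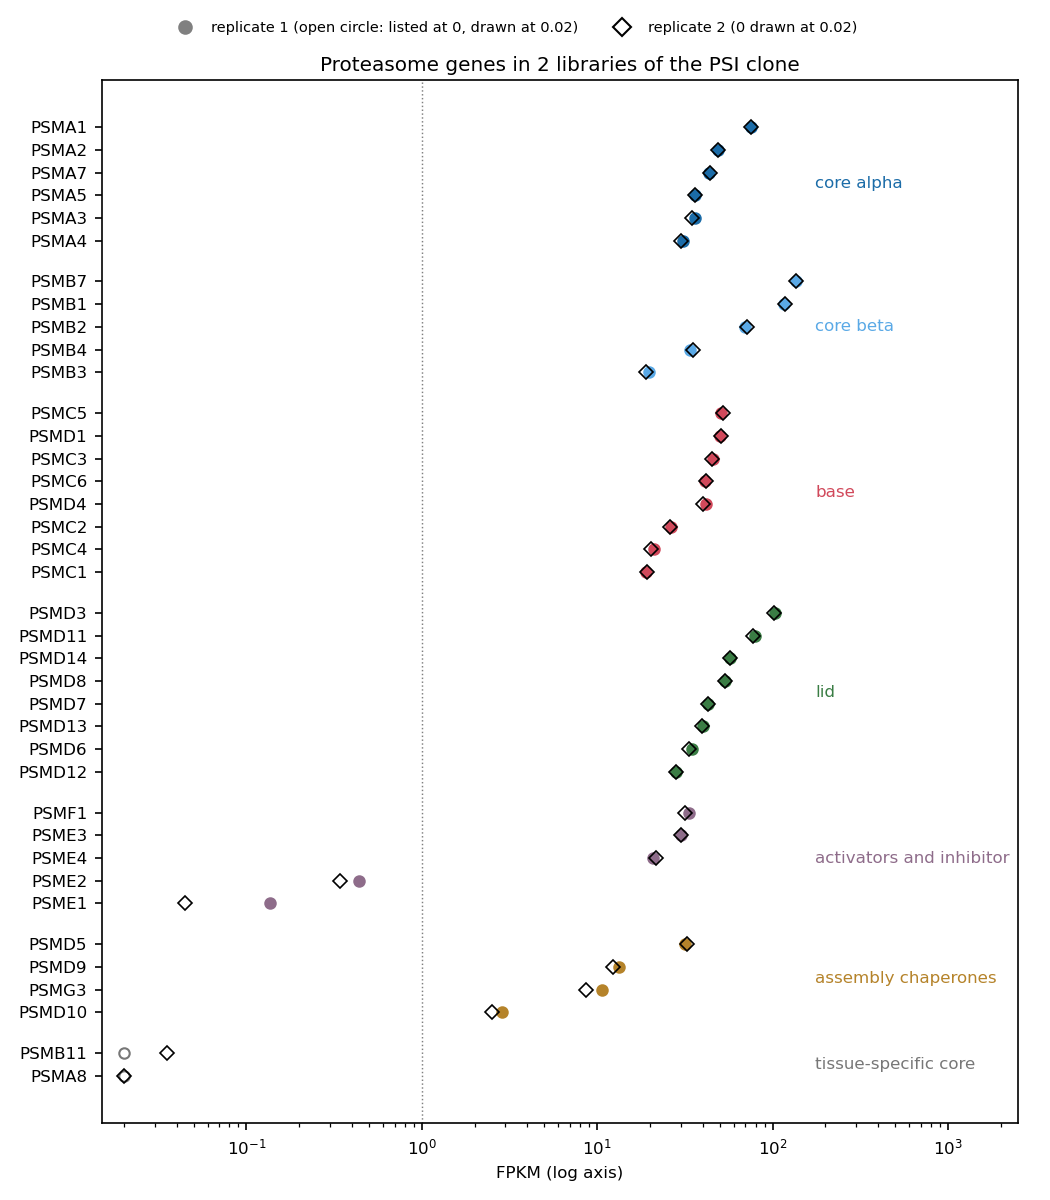
FPKM of each measured proteasome gene on a log axis, with a filled circle for replicate 1 and an open diamond for replicate 2, grouped by class and ordered by level, and a dotted line at 1 FPKM; values of 0 are drawn at 0.02. The circle and diamond of each core, base and lid gene nearly coincide, while PSME1, PSME2, PSMB11 and PSMA8 lie left of the line.

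The measured alpha subunits of the core spanned a 2.47-fold range of mean FPKM, with PSMA6 lacking a value. PSMA1, the highest of the 6 measured, had 75.5 FPKM in replicate 1 and 75.4 in replicate 2. PSMA2 followed with 48.9 and 49.1, and PSMA7 with 43.5 and 43.9. The remaining 3 were a tight group at the lower end. PSMA5 had 35.9 and 36.2, PSMA3 had 36.1 and 34.6, and PSMA4, whose protein tail helps to close the gate of the ring, had 31.0 and 30.1. The libraries gave overlapping ranges for PSMA3 and PSMA5, so those neighbours in the order did not differ beyond their spread; the other alpha pairs did not overlap. PSMA1 exceeded PSMA4 by 1.28 ± 0.03 on the log2(FPKM + 1) scale (SD, n = 2), a ratio of 2.44 in replicate 1 and 2.50 in replicate 2. The median of the alpha class was 39.96 ± 0.171 FPKM.

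The beta subunits were spread more widely. PSMB7, the only catalytic subunit of the constitutive core with a value, carries the trypsin-like site and was the most abundant member of all, at 136.0 FPKM in replicate 1 and 135.6 in replicate 2. PSMB1, a subunit without a catalytic site, had 115.5 and 117.2, and PSMB2, also without one, had 69.9 and 71.4. PSMB4 had 33.9 and 35.1. PSMB3, again a structural subunit, was lowest with 19.6 and 18.9. No 2 of the 5 beta genes had overlapping ranges, and PSMB7 stood 6.93-fold above PSMB3 in replicate 1 and 7.18-fold in replicate 2. The beta median of 70.7 ± 1.07 FPKM was 1.76-fold and 1.78-fold the alpha median in replicates 1 and 2, but with PSMB5 and PSMB6 missing it could lie anywhere from 34.5 to 116 FPKM. On the Sscrofa11.1 assembly, RefSeq places PSMB7 on chromosome 1 from 265172257 to 265235389, PSMB1 on chromosome 1 from 23827 to 40033 and PSMB3 on chromosome 12 from 23347060 to 23357616. All 3 are protein-coding genes, and each value is for the gene as a whole and not for a single exon. Genes with nearby identifier numbers lay within 1 Mb of PSMB7 (8 of 8) but not of PSMB1 (0 of 2) or PSMB3 (0 of 2). The pairing of the last 2 with these positions is therefore uncertain.

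In the base, the 6 ATPase genes fell into a higher and a lower group of 3. PSMC5 had 51.0 and 52.4 FPKM in replicates 1 and 2, PSMC3 had 45.5 and 45.4, and PSMC6 had 41.0 and 41.9. PSMC2 was lower with 26.4 and 26.1, PSMC4 had 21.0 and 20.4, and PSMC1, whose protein tail opens the core gate, had 19.1 and 19.2. PSMC5 exceeded PSMC1 by 1.39 ± 0.02 on the log2 scale (SD, n = 2), although their ATPases sit side by side in 1 ring. The non-ATPase members lay with the higher group. PSMD1, a large scaffold to which the ubiquitin receptor ADRM1 binds, had 50.4 and 51.1. PSMD4, a ubiquitin receptor between base and lid, had 41.5 and 40.2. PSMC6 overlapped PSMD4, and PSMC5 overlapped PSMD1; the remaining 26 of the 28 pairs of base genes had separate ranges.

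The lid was led by 2 structural subunits. PSMD3 had 103.8 FPKM in replicate 1 and 101.9 in replicate 2, and PSMD11, whose protein clamps the lid to the core, had 79.6 and 77.6. PSMD14, the deubiquitinase that cleaves the chain from the substrate, followed with 56.9 and 57.4. Its inactive partner PSMD7 had 42.7 and 42.8, so both members of this enzyme pair lay within the middle of the class. PSMD8 had 53.8 and 53.9, and PSMD13 had 40.2 and 39.5. At the lower end PSMD6 had 34.7 and 33.4, and PSMD12 had 28.2 and 28.3. No pair of lid genes overlapped, and PSMD3 exceeded PSMD12 by 1.83 ± 0.02 on the log2 scale (SD, n = 2). Separate ranges were the rule: only 8 of the 351 pairs among all core, base and lid genes overlapped. Such counts reflect the small scatter of this pair of libraries and are no test of a difference between subunits. RefSeq places PSMD3 on chromosome 12 from 22344751 to 22360550.

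Compared as classes, core, base and lid had medians between 41.0 and 48.3 FPKM. The core median was 43.5 FPKM in replicate 1 and 43.9 in replicate 2, the base median was 41.2 and 41.0, and the lid median was 48.2 and 48.3. The lid thus lay highest and the base lowest in both libraries. In each library the core median was the value of a single gene, PSMA7. Its RefSeq model overlaps LSM14B, and genes with nearby identifier numbers did not lie within 1 Mb of it (0 of 4). On the log2(FPKM + 1) scale the lid median exceeded the base median by 0.23 ± 0.01 (SD, n = 2) and the core median by 0.14 ± 0.01, and the core median exceeded the base median by 0.09 ± 0.01. These differences were larger than the spread between libraries and much smaller than the spread among genes, whose SD on the same scale was 0.84 in the core, 0.56 in the base and 0.61 in the lid. With 1 condition, and with genes that are not replicates, no test between the classes was made. The order of lid and core rested on the choice of members: with PSMD4 counted in the lid the difference turned to -0.033, and without genes whose model overlaps another it turned to -0.022. The difference of lid and base was 0.044 with PSMD4 in the lid. The difference of core and base was 0.27 without the overlapping genes. With the mean of log2 values in place of the median, the core lay at 49.96, the base at 34.7 and the lid at 50.3 FPKM, so that core minus base was 0.51, lid minus base 0.52 and lid minus core 0.011. The core lacked 3 of its 14 genes, and its median over all 14 could lie from 35.7 to 59.9 FPKM, a range that spans the base and lid medians.

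**Figure D2:**
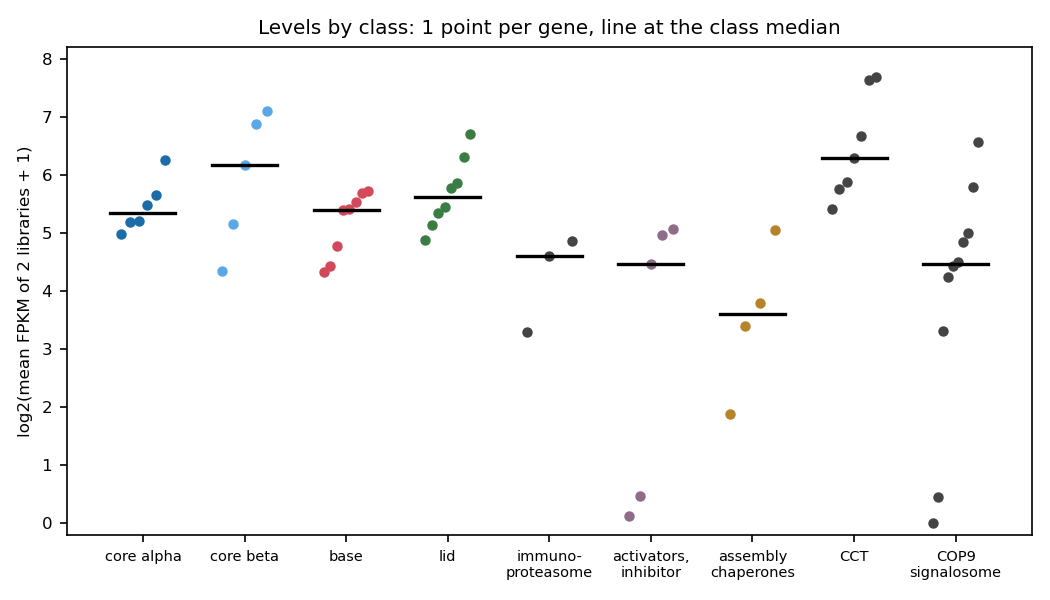
Mean level of each gene over both libraries, as log2(FPKM + 1), by class, with 1 point per gene and a line at the class median. The lines of core alpha, base and lid lie close together, the beta genes reach from 4.34 to 7.10, and the activator and COP9 classes each hold 2 genes below 1.

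Other multi-subunit complexes were set beside these classes as a description. The CCT chaperonin, a folding machine for actin and tubulin whose subunits are also built in at equal copies, had 7 of 8 genes measured, a median of 77.3 ± 0.258 FPKM (SD, n = 2) and a highest-to-lowest ratio of 4.92. Within the proteasome that ratio was 7.05 in the core, 2.70 in the base and 3.64 in the lid. The COP9 signalosome is built on the same plan as the lid and had 10 genes measured, with a median of 21.1 ± 0.241. COPS6 of that complex was listed at 0 in both libraries, and COPS3 had 0.296 and 0.452 FPKM. Ranges overlapped in 0 of the 21 pairs of CCT genes and in 0 of the 45 pairs of COP9 genes.

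Genes with a shorter recovered length tended to have the higher FPKM, with exceptions. By the shortest length that gave whole reads in both libraries, the 5 shortest of the 27 core, base and lid genes were PSMB1 (503 bp), PSMA1 (785 bp), PSMA3 (981 bp), PSMC3 (1045 bp) and PSMB7 (1075 bp). PSMB1, PSMA1 and PSMB7 were among the most abundant genes, PSMC3 was in the middle, and PSMA3 was in the lower part of the core. The 5 longest were PSMB4 (5626 bp), PSMC1 (5541 bp), PSMA7 (5130 bp), PSMC4 (4951 bp) and PSMA2 (4310 bp). PSMB4, PSMC1 and PSMC4 were in the lower part of their class, whereas PSMA7 was itself the core median and PSMA2 lay above it. Reads alone gave another order: PSMB4 had 6717 and 6358 reads, more than the 5144 and 4696 of PSMB7, yet a lower FPKM, at 34.5 ± 0.804 against 135.8 ± 0.313 (SD, n = 2). Across the 27 core, base and lid genes, Spearman's rho of length with FPKM was -0.52, it was -0.64 across the 7 genes of the CCT chaperonin, and it was -0.10 across the 10583 identifiers detected. Length is the divisor of FPKM, and genes are not independent replicates, so this is a description. The 8 genes under 1500 bp had a median of 60.4 FPKM, the 9 genes from 1500 to 3000 bp 41.4, and the 10 genes of 3000 bp or more 35.3. A recovered length can be a fraction of the length the authors used. The lengths listed above, the short ones included, and the rho and length groups drawn from them all carry this limit. For PSMB4 even the recovered 5626 bp exceeded the whole RefSeq gene, which runs from 97835544 to 97837909 on chromosome 4. Its FPKM thus rested on a longer divisor than that gene, and its low rank carries this limit. For PSMA7 the recovered 5130 bp was close to the whole RefSeq gene, from 61566373 to 61571516 on chromosome 17. Its FPKM, and with it the core median, carries a similar limit. The part of gene models in the order of the subunits as a whole was not tested.

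**Figure D3:**
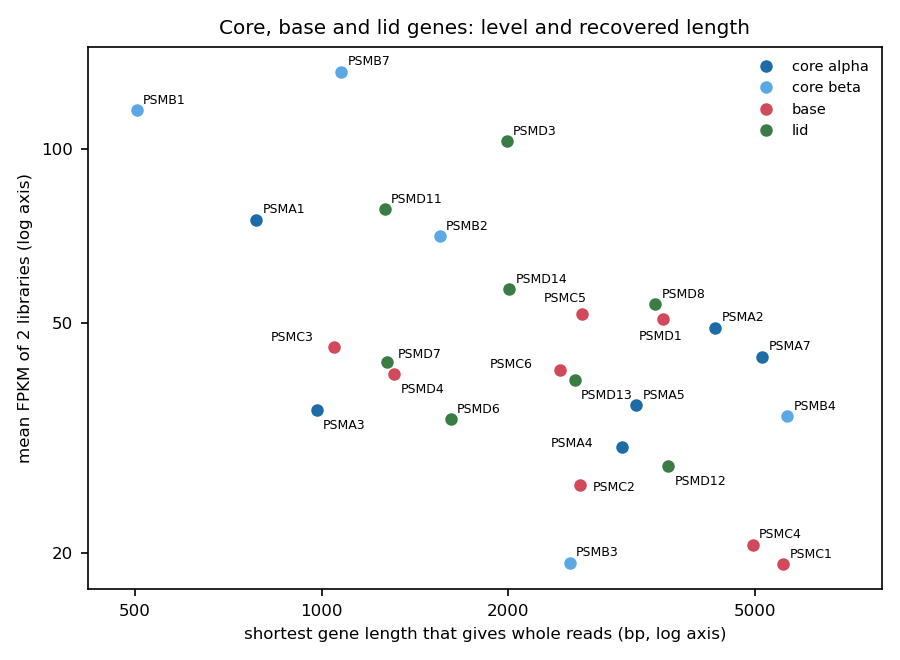
Mean FPKM of the 27 core, base and lid genes against the shortest gene length that gives whole reads, both on log axes and coloured by class. The genes above 60 FPKM all lie at 1988 bp or less, and PSMB3, PSMC4 and PSMC1, the lowest, lie at 2511 bp or more.

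Among the alternative caps, the genes of the nuclear activators were detected and those of the cytoplasmic activator had values near 0. PSME3, the nuclear PA28 gamma, had 29.9 FPKM in replicate 1 and 30.2 in replicate 2, and PSME4, which encodes the activator PA200, had 20.9 and 21.5. PSMF1, the proteasome inhibitor PI31, had 33.2 and 31.7. By contrast, PSME1, the alpha subunit of the interferon-inducible PA28 ring, had 0.137 and 0.0449 FPKM from 10 and 3 reads. PSME2, its beta partner, had 0.436 and 0.344 from 43 and 31 reads, so PSME3 stood 68.5-fold above it in replicate 1 and 88.1-fold in replicate 2. In a bulk library a low level cannot be told apart from fewer cells with the transcript. Since the widely used genes ADRM1 and RPS27A were listed at 0, values near 0 here need not mean that the transcripts were scarce.

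PSME1 and PSME2 have neighbours with low values on the chromosome. RefSeq places PSME2 on chromosome 7 from 75154570 to 75157871 and PSME1 on the same chromosome from 75161830 to 75164531, with EMC9, a subunit of a membrane insertion complex, between them and overlapping PSME1. EMC9 had 0.131 and 0.143 FPKM. IRF9, an interferon signalling factor upstream of PSME2, had 0.234 and 0.219, and FITM1, beyond PSME1, had 0.0369 and 0.0403, so 5 neighbouring RefSeq genes with a value were all under 1 FPKM. Of the 19 genes with a value within 100 kb of PSME1, 9 were under 1 FPKM in both libraries. These were the 5 just named and CHMP4A, IPO4, CPNE6 and CARMIL3. For comparison, 61.5% of the identifiers with a symbol and 40.9% of all identifiers reached 1 FPKM in both. REC8, before IRF9, had 1.08 and 1.06 FPKM. The next gene after FITM1, DCAF11, had 19.2 and 19.6, and PCK2 after it had 95.6 and 98.6. RNF31, whose identifier is numbered between those of IRF9 and PSME2, had 7.07 and 6.85 and has no position under that symbol. The identifiers go with these positions: the 9 positioned genes numbered next to PSME1 and the 8 numbered next to PSME2 all lie within 1 Mb of it. The cause of the low values of this stretch was not tested.

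**Figure D4:**
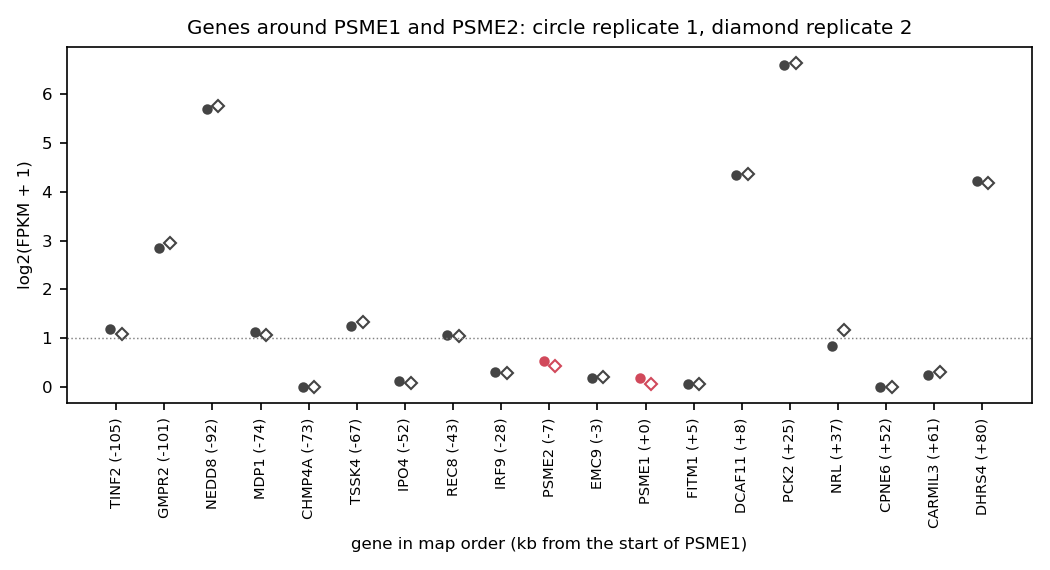
Level of the 19 genes with a value within 100 kb of PSME1, as log2(FPKM + 1), in map order with the distance of each gene's start from that of PSME1 in kb; circles are replicate 1, diamonds replicate 2, red marks PSME1 and PSME2, and the dotted line is at 1 FPKM. The 5 genes from IRF9 to FITM1 all lie below the line, as do CHMP4A, IPO4, CPNE6 and CARMIL3, while DCAF11 and PCK2 lie well above it.

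The assembly chaperones were lower than most subunits. PSMD5, which holds ATPases of the base before the cap is complete, had 31.8 FPKM in replicate 1 and 32.4 in replicate 2. PSMD9 and PSMD10, the latter also known as gankyrin, are also chaperones of the base. PSMD9 had 13.3 and 12.4, and PSMD10 had 2.86 and 2.52. The model of PSMD10 overlaps ATG4A. PSMG3, a chaperone of the alpha ring, had 10.6 and 8.60. The median of these 4 was 11.2 ± 1.05 FPKM, but with 3 of the 7 chaperone genes missing it could lie from 2.69 to 32.1. Of the 2 subunits that replace constitutive ones in single tissues, PSMA8 of the testis was listed at 0 in both libraries, and PSMB11 of the thymus had 0 and 0.0354 from 0 and 1 reads. Because ADRM1 and RPS27A, which nearly every cell uses, were also listed at 0, a 0 in this table need not mean that the transcript was absent.

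The immunoproteasome genes, left out of the members, were all detected. Their products take the place of the constitutive catalytic subunits, PSMB8 that of PSMB5, PSMB9 that of PSMB6 and PSMB10 that of PSMB7. PSMB9 had 26.9 and 29.2 FPKM in replicates 1 and 2, PSMB8 had 23.4 and 23.1, and PSMB10 had 8.76 and 8.77. The only pair with both values showed PSMB7 above PSMB10 by 3.81 ± 0.01 on the log2 scale (SD, n = 2), a ratio of 15.5 in each library. Part of that ratio is the length divisor, since the recovered lengths were 1075 bp for PSMB7 and 3357 bp for PSMB10. In reads the gap was smaller, with 5144 and 4696 for PSMB7 against 1034 and 949 for PSMB10. The counterparts of PSMB8 and PSMB9 had no value. Of the 11 core subunits measured, PSMB3 was the only one below PSMB8 and PSMB9. RefSeq places PSMB8 and PSMB9 on chromosome 7 with 10.5 kb between their models and PSMB10 on chromosome 6. The PSMB10 gene runs there from 28544910 to 28547609, a span shorter than its recovered length, so its FPKM depends on the model used.

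The other genes of the pathway were taken from lists of 33 genes, of which 29 had a value and 27 were detected. UBB, a polyubiquitin gene, had 936 ± 1.31 FPKM (SD, n = 2). RPS27A, a ubiquitin fusion gene, was listed at 0. The activating enzyme UBA1 had 97.3 ± 0.776, and its relative UBA6 had 16.7 in replicate 1 and 17.4 in replicate 2. VCP, the ATPase that extracts ubiquitin-tagged proteins for the proteasome, had 172.5 ± 1.70, a level 3.41-fold and 3.27-fold that of PSMC5, the highest proteasome ATPase gene. Its cofactors were lower, with NPLOC4 at 30.3 ± 0.344 and UFD1 at 17.4 ± 0.707. Among the ubiquitin shuttles, which carry tagged proteins to the particle, RAD23B had 58.8 ± 2.02, UBQLN1 had 57.1 in replicate 1 and 54.8 in replicate 2, and UBQLN2 had 15.6 and 15.2.

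The 4 enzymes that bind the particle were all detected. The deubiquitinase UCHL5 had 59.1 ± 2.68 FPKM (SD, n = 2) and USP14 17.9 ± 0.148, and the maturation factor POMP, which is degraded as the core is completed, had 56.7 ± 0.374. ADRM1, the ubiquitin receptor that anchors UCHL5 to PSMD1, was listed at 0 in both libraries. The ubiquitin ligase UBE3C had 24.9 FPKM in replicate 1 and 23.9 in replicate 2, and the proteasome-bound thioredoxin TXNL1 had 25.8 and 25.7. NFE2L1, the transcription factor that drives proteasome genes when proteasome activity falls, had 106.8 ± 1.41, and its relative NFE2L2 had 41.8 in replicate 1 and 42.9 in replicate 2. AKIRIN2, which brings proteasomes into the nucleus, had 67.8 ± 0.799, and NGLY1, the glycanase that activates NFE2L1, had 13.8 ± 0.318.

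The 2 libraries gave nearly the same value for most members. FPKM was higher in replicate 2 for 18 of the 37 members with reads, against 52.2% of all genes with reads, and higher in replicate 1 for 19. Of the 36 members with reads in both, 31 differed by less than 5%, and the highest coefficient of variation of a core, base or lid gene was 3.11%, that of PSMA3. Recovered reads were compared by a two-sided exact binomial test with Benjamini-Hochberg adjustment over the 16327 genes with reads, of which 1.11% were called at an adjusted p under 0.05. None of the 37 members tested was called, also with the expected ratio taken from the median FPKM ratio or with genes of fewer than 10 reads left out. At an unadjusted p under 0.05 the exact test gave 2 of 37 members, against 10.2% of all genes. PSMG3 had 390 and 290 reads (exact binomial p = 0.00719, adjusted p = 0.204). PSMD9 had 1541 and 1307 reads (exact binomial p = 0.0428, adjusted p = 0.452). Both were higher in replicate 1. This sets one library against the other, since the study has no second condition.

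**Figure D5:**
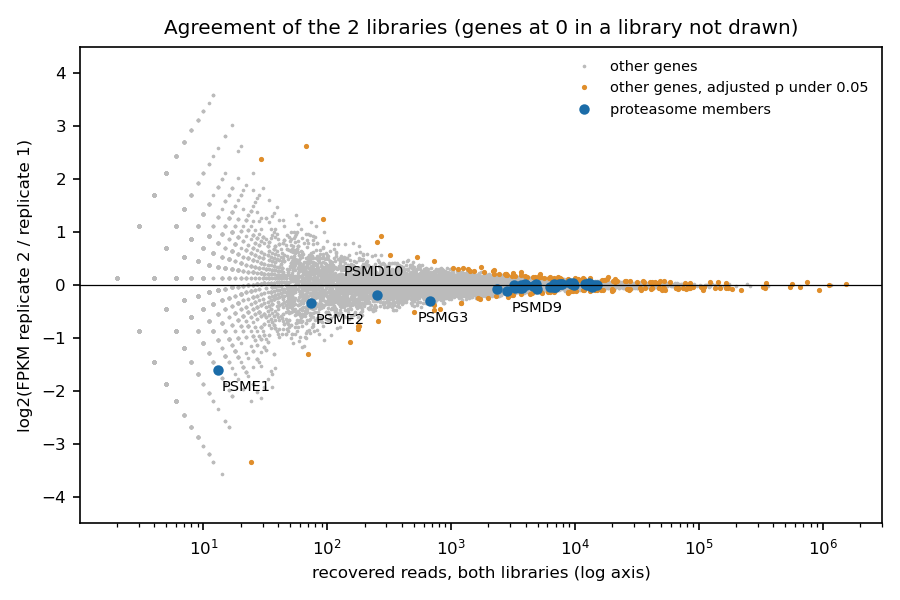
Log2 ratio of replicate 2 to replicate 1 in FPKM against the recovered reads of both libraries on a log axis, for all genes with reads in both (grey), those with an adjusted p under 0.05 (orange) and the 36 proteasome members (blue). Most members lie close to 0, and PSMG3, PSMD10, PSME2 and PSME1, the members with the fewest reads, lie below it.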

How the data were processed

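RNA-seq was done on 2 libraries of 1 clone. The values the authors deposited are FPKM, in 1 column for each library. Per the submitters' processing notes, the tools were HTSeq 0.6.1 for counting and TopHat2 2.0.12 for alignment, on Sscrofa11.1. Annotation release, strand setting and filtering: not given in the sources used here, so overlapping genes are uncertain. RefSeq gene models overlap another gene for 9 measured members: PSMA3, PSMA7, PSMC1, PSMC5, PSMD1, PSMD6, PSMD14, PSMD10 and PSME1.

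Library totals were recovered from the steps of low values, and lengths of 50 to 30000 bp were tried for each gene, keeping the shortest at which each library had a whole number of reads (tolerance 1.2 times the rounding of the digits). Of the 16327 genes above 0, 100% had such a length, and their reads made up 90.8% of each total. One read in 1 kb was worth 0.0284 and 0.0310 FPKM. True read numbers can be multiples of these, and tests on them cover counting error only.

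Symbols came from a gene name table and coordinates from RefSeq by symbol. All 38 members had genes with a nearby identifier number and a position, and for 25 of the 38 such a gene lay within 1 Mb. For the rest, PSMB1, PSMB3 and PSMB4 among them, none did, so the pairing of their values with RefSeq positions is not borne out. No protein or promoter sequence was used here, so the promoter motifs that had been listed were not searched. Class medians are those of each library, then averaged; log values are log2(FPKM + 1). Values are printed for the catalytic subunits, the 2 highest and 2 lowest genes of each class, genes under 1 FPKM and others by their role. Some genes of the pathway lists are counted but not reported here by name. The members and lists were chosen with earlier results of these data known. Alternatives changed classes, pseudocount, scaling, detection level, summary and libraries. Python 3.11.15, SciPy 1.17.1 and pandas 2.3.3 were used.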

Additional observations from a re-analysis of the deposited data

How the results depend on the processing

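With 1 library left out, the medians are those of the other: 43.5 to 43.9 FPKM (core), 41.0 to 41.2 (base) and 48.2 to 48.3 (lid), which with 2 libraries is no check of stability. With PSMD4 in the lid, the medians were 41.4 (base) and 42.7 (lid), lid minus core was -0.033 and lid minus base 0.044 (log2), and the SD among genes was 0.60 (base) and 0.58 (lid). With classes by symbol letter alone, which adds tissue-specific subunits to the core, moves PSMD1 and PSMD4 from the base to the lid and adds chaperones to the lid, the medians were 36.2 (core), 33.8 (base) and 40.8 (lid), lid minus core was 0.17, lid minus base 0.26, and the SD 2.26, 0.60 and 1.22. With ADRM1 added, the base median was 40.6, core minus base 0.11, lid minus base 0.25 and the base SD 1.80; SEM1 had no value. With the mean of log2 values, the levels were 49.96, 34.7 and 50.3 FPKM, core minus base was 0.51, lid minus core 0.011 and lid minus base 0.52. On the TPM scale the medians were 119, 112 and 131, and the SD 0.85, 0.57 and 0.62. With a pseudocount of 0.1, the SD was 0.86, 0.58 and 0.62, and PSMB7 minus PSMB10 was 3.94. Without genes whose model overlaps another, an alternative chosen after seeing the data, 9, 5 and 6 genes were left: the medians were 49.0 (core) and 40.6 (base), core minus base 0.27, lid minus core -0.022 and lid minus base 0.25, and the SD 0.92, 0.48 and 0.67. The cause of these shifts was not tested. The number of members detected ran from 32 at 10 FPKM to 35 at 0.1 FPKM, and the count called between libraries was 0 under both alternatives. PSMB5 and PSMB6 had no value, so their pairs with PSMB8 and PSMB9 were not run. No paired analysis was possible because there is only 1 group. Levels near 0 are limited by few reads, and no upper limit is given for genes at 0, whose length is unknown.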

Other observations

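Some proteasome genes lie close together in the pig genome. RefSeq places PSMB4 and PSMD4 on chromosome 4 with 156 kb between their models, and they had 34.5 ± 0.804 and 40.8 ± 0.930 FPKM (SD, n = 2). Genes with nearby identifier numbers lay within 1 Mb of PSMD4 (6 of 6) but not of PSMB4 (0 of 3), so the pairing of PSMB4 with its position is uncertain. PSMB11, at 0 and 0.0354 FPKM in replicates 1 and 2, lies 7.85 kb from PSMB5, which had no value. The 38 measured members are spread over 14 chromosomes.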
